A study of Mus musculus with 24 samples.

Results

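The response of macrophages to bacterial lipopolysaccharide (LPS) was measured after 3 h and after 18 h, and the account below asks which genes responded early, late or throughout, and whether a difference between the times lay in the treated or in the untreated cells. It covers the 16 of 24 libraries whose labels name untreated or LPS-treated cells, 4 in each of 4 groups. All cells were bone marrow-derived macrophages of wild-type C57BL/6J mice, grown from marrow with L929-conditioned medium, which supplies macrophage growth factor; the medium of the experiments is described without it. The untreated groups were left for 3 h or 18 h, and the treated groups received LPS at 100 ng/mL for the same times; no group was taken before the start. The other 8 libraries, from cells given the sphingomyelin S14 at 30 µM, enter a single comparison near the end.

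LPS is sensed by Toll-like receptor 4, whose adaptors start NF-kB and MAP kinase signalling and, from endosomes, the production of type I interferon. Secreted interferon then acts on the same and on neighbouring cells through STAT factors, so that a second wave of transcription follows the first. Prolonged exposure is known to bring feedback inhibitors, altered metabolism and tolerance of further LPS.

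Each library held between 3334182 and 6350251 reads assigned to genes, from an assay that reads the 3′ ends of polyadenylated RNA, and 13405 to 15044 genes had at least 1 read. Levels are given in CPM, the reads of a gene relative to the TMM-scaled library size, and a ± after a level is the SD between the libraries of its group (n = 4). All 10 macrophage markers were detected in the 16 libraries, and their summed level was 20900 to 22100 CPM without and 20600 to 22300 CPM with LPS at 3 h, and 32400 to 46500 and 17000 to 25600 CPM at 18 h. Of 10 neutrophil markers 9 were detected, with Retnlg at 0, and they summed to 2.64 to 4.09 and 7.53 to 35.2 CPM at 3 h and to 1.74 to 5.61 and 41.2 to 50.4 CPM at 18 h, without and with LPS. Of 9 fibroblast and stromal markers 6 were detected, with Col3a1, Lum and Pdgfra at 0, and summed to at most 1.75 CPM without LPS, 6.41 CPM with LPS at 3 h and 19.2 CPM at 18 h. Of 9 erythroid and megakaryocyte markers 5 were detected, and they summed to 138 to 178 and 198 to 225 CPM at 3 h and to 38.0 to 52.1 and 195 to 258 CPM at 18 h. Of the neutrophil, fibroblast and erythroid markers, 2, 1 and 1 passed the filter on low counts, so few could be tested singly. Markers of B cells, T and NK cells, and mast cells are given further below. The part of other cells in the late responses was not tested. Library 4 of the untreated 18 h group stood apart from the other 3 of its group: the SD of its log2 deviations was 0.691, against 0.437 to 0.461 for the others. It also held 705 reads of the RNA spike-ins, against 1829 to 2444 in the others. Results that rest on that library are given with and without it. These are bulk samples, so fewer cells expressing a gene and less RNA of it per cell cannot be told apart.

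The time dependence of a gene was tested as the interaction, the LPS response at 18 h minus the response at 3 h, each response being the log2 fold change of treated over untreated cells of the same time. Of 11717 genes tested, 6000 passed the edgeR test at an adjusted p under 0.05, or 51.2%, with 2943 higher (25.1%) and 3057 lower (26.1%) at 18 h. A positive interaction means that the response was more positive at 18 h. The interaction equals the change of the treated level between the times minus the drift of the untreated level, and both parts were tested too. The treated level changed for 7538 genes (64.3%), rising for 3710 (31.7%) and falling for 3828 (32.7%). The untreated level drifted for 4547 genes (38.8%), rising for 2249 (19.2%) and falling for 2298 (19.6%). Nothing in the labels says whether the 4 replicates came from separate animals or cultures, so these p-values measure the spread between these libraries, which may be technical.

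At 3 h, 6500 genes responded to LPS (55.5%), 2964 higher (25.3%) and 3536 lower (30.2%), and at 18 h 6517 responded (55.6%), 3200 higher (27.3%) and 3317 lower (28.3%). A set of 4060 genes was called at both times, 62.5% of the 3 h calls and 62.3% of the 18 h calls, and 2893 of these went the same way. The responses correlated across genes with a Pearson r of 0.45 and a Spearman rho of 0.32, as a description over 11717 genes that are not independent replicates. The 2 responses share no library.

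Genes were sorted by whether their response was called and at least 2-fold at each time, and by the interaction. Transient genes met both conditions at 3 h and not at 18 h, with an interaction called against the early response: 771 were higher (6.58%) and 817 lower (6.97%) with LPS. Of these, 300 and 169 were still called the same way at 18 h, below 2-fold. Late genes met both at 18 h and not at 3 h, with an interaction called in that direction: 442 were higher (3.77%) and 757 lower (6.46%). Among them 84 and 170 were already called the same way at 3 h, below 2-fold. Sustained genes responded the same way at both times: 608 were higher (5.19%) and 446 lower (3.81%). A further 83 genes (0.708%) were higher at 3 h and lower at 18 h, and 87 (0.743%) did the opposite; these are called reversed. Another 773 genes passed 2-fold at only 1 time without an interaction that separates the times and were left undecided, and 6933 passed at neither. The threshold has no gap at its edge: at 3 h the response of Atg16l1 was 1.00 on the log2 scale and counted, while Cutc at 0.9998 did not, and at 18 h Ptma at -1.0001 counted and Tnfaip8l1 at -0.9997 did not.

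**Figure D1:**
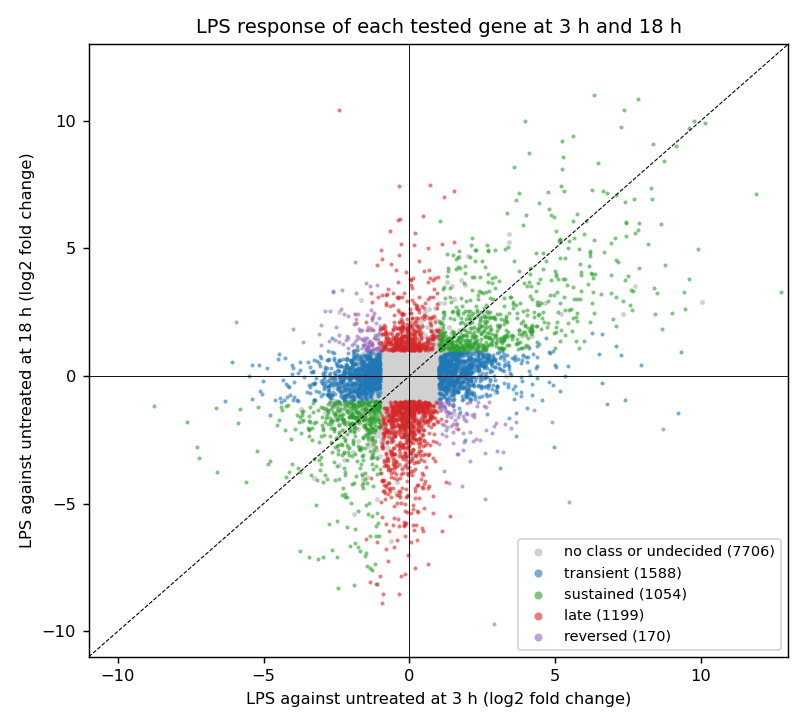
Each point is a tested gene, with its LPS response at 3 h on the horizontal axis and at 18 h on the vertical axis (log2 fold change against untreated cells of the same time), coloured by time class. The 1588 transient genes lie along the horizontal axis, the 1199 late genes along the vertical axis and the 1054 sustained genes in the upper right and lower left.

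Of the leading genes of the transient, sustained and late higher classes, 4 whose promoter entry held a searched motif are shown here, taken by rank. A cap on the number shown per class left out Sectm1a and Ccl5, whether or not they hold a motif. The other leading genes not shown, among them all the late ones, had no entry or no motif in the bases before the start. The motifs of the 4 belong to interferon and AP-1 signalling and were found more often in some classes than in all windows. The sequences are RefSeq's, build GRCm38.p6, 250 bases up to the annotated start and 5′ to 3′ on the strand of the gene, and capitals mark the motif. Jaml (chr9:45078933-45079182, plus strand) and Calhm6 (chr10:34127973-34128222, minus strand) were transient, and Il1a (chr2:129309973-129310222, minus strand) and Cxcl9 (chr5:92328080-92328329, minus strand) were sustained. The capitals are an interferon-stimulated response element in Jaml (read on the opposite strand), Calhm6 and Cxcl9, and an AP-1 site in Il1a.
Jaml: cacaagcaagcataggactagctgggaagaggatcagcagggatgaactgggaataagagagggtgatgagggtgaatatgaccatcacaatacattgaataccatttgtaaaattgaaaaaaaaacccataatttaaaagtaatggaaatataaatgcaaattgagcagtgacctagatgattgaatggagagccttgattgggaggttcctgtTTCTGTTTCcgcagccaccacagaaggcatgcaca
Calhm6: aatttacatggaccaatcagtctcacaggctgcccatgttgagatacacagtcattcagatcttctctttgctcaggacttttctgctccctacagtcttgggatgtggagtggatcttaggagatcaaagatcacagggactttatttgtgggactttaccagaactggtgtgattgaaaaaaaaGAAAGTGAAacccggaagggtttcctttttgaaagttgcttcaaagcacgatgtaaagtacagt
Il1a: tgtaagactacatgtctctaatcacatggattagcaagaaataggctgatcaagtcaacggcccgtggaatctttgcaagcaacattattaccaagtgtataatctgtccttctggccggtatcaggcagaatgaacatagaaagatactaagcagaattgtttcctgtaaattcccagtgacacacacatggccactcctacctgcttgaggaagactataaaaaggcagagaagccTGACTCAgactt
Cxcl9: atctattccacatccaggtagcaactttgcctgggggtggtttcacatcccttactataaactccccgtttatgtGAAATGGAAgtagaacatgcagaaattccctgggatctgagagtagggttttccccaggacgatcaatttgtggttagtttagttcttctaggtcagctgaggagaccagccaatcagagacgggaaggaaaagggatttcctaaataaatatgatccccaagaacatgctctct

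Both strands of 300-base windows (250 bases before to 50 after the start) were searched for 8804 of the tested genes. The interferon-stimulated response element, written GAAANNGAA, stood in 7.66% of all windows, 14.0% of those of transient higher genes, 19.7% of sustained higher and 7.33% of late higher genes. The AP-1 site, TGANTCA, stood in 5.04% of all, 5.73% of transient higher, 12.4% of sustained higher and 4.69% of late higher windows. The C/EBP site, TTNNGCAA, stood in 8.33% of all and 16.1% of sustained higher windows, and the kB site, searched by its usual consensus, in 5.10% and 11.1%. Late higher windows held the kB site in 6.16% and the C/EBP site in 9.38%. The cyclic AMP response element TGACGTCA, the sterol regulatory element TCACNCCAC and the CArG box stood in 3.41%, 1.00% and 1.26% of all windows, and in 2.6%, 1.08% and 1.52% of sustained higher windows. None of the searched motifs contains another. A match describes the letters of the window only, and the difference between classes was not tested.

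Il10, the cytokine that restrains macrophage activation, was transient through its treated level. Its level was 4.00, 9.23, 4.62 and 5.62 CPM in the untreated libraries at 3 h and 185, 197, 193 and 191 CPM in the LPS libraries. At 18 h it was 7.74, 3.16, 9.09 and 11.0 CPM without and 8.67, 9.31, 10.7 and 10.5 CPM with LPS. The groups were far apart at 3 h and overlapped at 18 h. The interaction was -4.67 ± 0.33 (log2 fold change ± SE, adjusted p = 3.79e-14, edgeR), of which the treated level gave -4.28 and the untreated level 0.39 (adjusted p = 0.254).

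Adamts4, a protease of cartilage proteoglycans, rose to 128 ± 14.1 CPM at 3 h from 3 reads in all untreated 3 h libraries together, a ratio of 727 (95% counting interval 248 to 3530), and stood at 0.572 ± 0.284 CPM at 18 h with LPS. Its interaction of -8.35 lost its call without library 3 of the untreated 18 h group, the only one of that group with reads (-4.84, adjusted p = 0.909); the fall of its treated level by 7.72 does not use that library. Tnfsf15, a cytokine of the TNF family, went from 3.73 ± 1.77 to 338 ± 23.5 CPM at 3 h and was 5.44 ± 1.49 and 9.94 ± 2.48 CPM at 18 h (interaction -5.63 ± 0.34). Kalrn, a guanine nucleotide exchange factor, had 0 reads without LPS at 3 h and was at least 91.4-fold higher with it, at 16.0 ± 3.64 CPM. Sectm1a and Nr4a3, an immediate early nuclear receptor, reached 11.4 ± 2.18 and 14.3 ± 2.18 CPM at 3 h with LPS and were at 1.12 ± 0.580 and 0.117 ± 0.234 CPM at 18 h.

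For other transient genes the untreated cells moved as well. Calhm6, a channel subunit of activated macrophages, was at 607, 582, 504 and 453 CPM with LPS at 3 h and at 4.47, 2.93, 1.98 and 4.60 CPM without. At 18 h the LPS libraries read 38.4, 41.3, 43.4 and 46.7 CPM and the untreated ones 28.6, 26.9, 15.5 and 26.3 CPM. No library overlapped between the groups at either time, but the distance closed from both sides: the treated level fell by 3.66 and the untreated level rose by 2.80 on the log2 scale. Jaml, an adhesion receptor of leukocytes, likewise rose from 1 read in the untreated 3 h libraries to 2.20 ± 1.89 CPM in those of 18 h, while the treated level fell from 14.4 ± 2.10 to 1.12 ± 0.579 CPM. Ifih1, the cytosolic RNA sensor MDA5, went from 48.5 ± 6.09 to 1490 ± 33.1 CPM at 3 h and from 80.1 ± 9.30 to 156 ± 11.6 CPM at 18 h (interaction -3.98 ± 0.13). P2ry14, a receptor for UDP-glucose, was transient through its untreated level alone: with LPS it was 44.2 ± 9.03 CPM at 3 h and 42.9 ± 5.11 at 18 h, and without LPS 9.76 ± 1.89 and 55.3 ± 10.8 CPM.

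**Figure D2:**
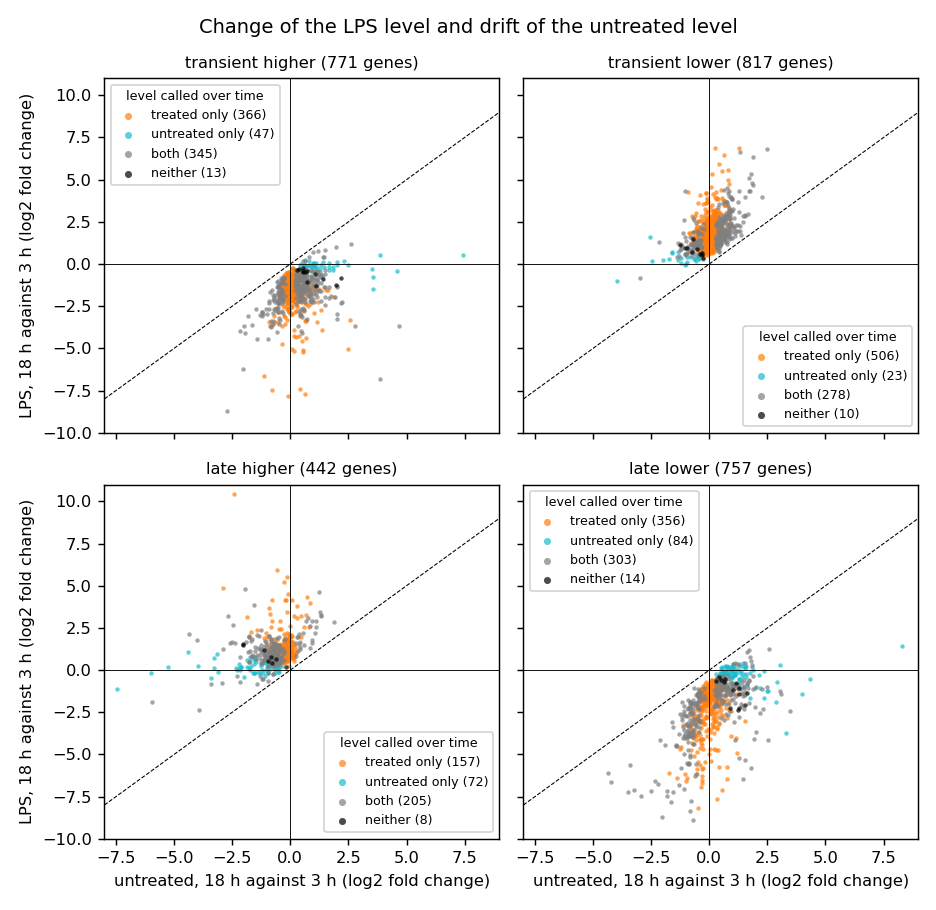
For the transient and late genes of each direction, the change of the LPS level between 3 h and 18 h (vertical, log2) is plotted against the drift of the untreated level (horizontal, log2); on the dashed line both move alike and the interaction is 0. Colours give which level passed the test, the treated level alone in 366 of 771 transient higher and 157 of 442 late higher genes, and the median drift of late higher genes is -0.66.

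Over all 6000 called interactions, the treated level alone passed the test in 2985 (49.8%), the untreated level alone in 692 (11.5%), both in 2155 (35.9%) and neither in 168 (2.80%). Where both passed, they moved in opposite directions for 1102 genes and in the same direction for 1053. The size of the treated change exceeded that of the untreated drift in 4721 of the 6000. The untreated level alone passed in 47 of 771 transient higher (6.10%), 23 of 817 transient lower (2.82%), 72 of 442 late higher (16.3%) and 84 of 757 late lower genes (11.1%). Late higher genes had a median untreated drift of -0.66 and a median treated change of 1.04 on the log2 scale, and transient higher genes 0.25 and -1.43. Scaled to the spike-in RNAs, the medians of all genes move by -0.99 (interaction), 0.83 (untreated), -0.16 (treated), 0.34 (LPS at 3 h) and -0.64 (LPS at 18 h), or by -0.50, 0.34, -0.16, 0.34 and -0.16 without library 4 of the untreated 18 h group. These shifts move the balance of the calls. Higher calls made up 49.0% of the called interactions under TMM, 7.84% with spike-in scaling and 20.1% with spike-in scaling without that library. For the treated change the shares were 49.2%, 37.4% and 39.0%, and for the untreated drift 49.5%, 96.2% and 84.6%. For the response at 3 h they were 45.6%, 71.0% and 70.6%, and for the response at 18 h 49.1%, 13.3% and 36.0%. Changes are given under TMM below, and the counts of gene lists also under spike-in scaling. How much spike-in was added is not stated in the labels.

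**Figure D3:**
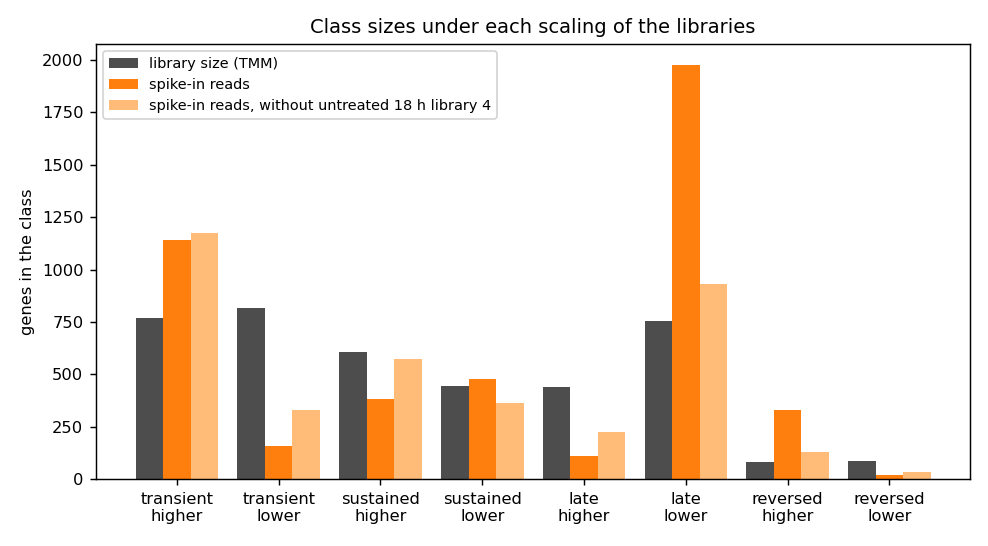
Bars give the number of genes in each time class with libraries scaled by TMM, by spike-in reads, and by spike-in reads without library 4 of the untreated 18 h group. Late higher genes number 442, 111 and 226 under the 3 scalings and transient lower genes 817, 160 and 329, while transient higher genes number 771, 1141 and 1176.

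Tnf, an early cytokine of the LPS response, drifted in parallel in treated and untreated cells. Tnf (chr17:35199381-35202007, GENCODE M21 on GRCm38) was at 171, 153, 196 and 180 CPM in untreated and 789, 884, 874 and 968 CPM in LPS-treated cells at 3 h. At 18 h it was at 15.1, 14.7, 16.5 and 12.8 CPM and at 76.4, 90.6, 104 and 87.1 CPM. Every LPS library was above every untreated one of its time, and every 18 h LPS library was below every untreated 3 h library. The treated level fell by 3.29 ± 0.10 and the untreated level fell by 3.56 ± 0.11, so the response of 2.33 at 3 h and 2.59 at 18 h gave an interaction of 0.27 ± 0.14 that was not called (adjusted p = 0.116; 0.34 and adjusted p = 0.0471 without library 1 of the LPS 18 h group). Such parallel drift, with responses called the same way at both times and no called interaction, was downward in 225 genes (1.92%) and upward in 279 (2.38%).

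Acod1, the enzyme that makes itaconate, had an untreated level that fell more than the treated one. It was at 278, 265, 255 and 271 CPM in untreated and 9920, 9590, 10100 and 9310 CPM in LPS-treated cells at 3 h, and at 35.6, 28.0, 22.2 and 18.4 against 4340, 3950, 4760 and 5080 CPM at 18 h. No LPS library overlapped an untreated one, and both levels were lower at 18 h. The treated level fell by 1.10 while the untreated level fell by 3.36, so that the response grew, from 5.19 to 7.45 (interaction 2.26 ± 0.17, adjusted p = 1.57e-12). In all, 59 genes (0.504%) had a positive called interaction while their treated level fell, and 78 (0.666%) a negative called interaction while it rose.

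The inflammatory cytokines and chemokines were induced at 3 h and mostly still higher at 18 h. Of 19 tested cytokines 18 were higher at 3 h and 17 at 18 h (14 with spike-in scaling), 14 were sustained, 4 transient and 0 late, and the interaction was called higher for 1 and lower for 9 (0 and 10 with spike-in scaling); their median interaction was -2.35 against 0.01 over all genes. Il1b rose from 12.4 ± 2.63 to 4010 ± 527 CPM at 3 h and from 3.10 ± 1.65 to 1700 ± 867 CPM at 18 h, where the LPS libraries spread from 684 to 2670 CPM; the interaction was 0.75 ± 0.68 (adjusted p = 0.379). Il1a, its relative that signals through the same receptor, was at 161 ± 19.1 CPM at 3 h with LPS and 25.3 ± 7.68 CPM at 18 h, at least 208-fold above the untreated 18 h libraries, which had 0 reads. Il6 fell from 319 ± 34.5 to 3.68 ± 2.33 CPM in LPS-treated cells. Its untreated groups held 1 and 0 reads, so the interaction of -4.75 was not called by edgeR (adjusted p = 0.920) and was called by DESeq2 (-5.28, adjusted p = 0.000969). Ifnb1, interferon beta, had 0 reads in untreated cells at 3 h and was at 11.7 ± 5.94 and 2.23 ± 1.32 CPM with LPS at the 2 times (interaction -4.41, adjusted p = 0.128, or -5.09 and 0.0377 with spike-in scaling without library 4 of the untreated 18 h group). Il12b, a subunit of interleukin-12 and interleukin-23, fell from 101 ± 14.7 to 0.674 ± 0.912 CPM with LPS; its interaction of -6.85 rests on 2 untreated reads at each time and lost its call without library 3 of the untreated 18 h group (-4.86, adjusted p = 0.939). Edn1, endothelin, had the highest fitted response at 3 h of all genes tested: 590 ± 14.7 CPM against 1 read, a ratio of 10100 (95% counting interval 1810 to 399000), and 3.45 ± 0.808 CPM at 18 h.

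Of 20 chemokines tested 19 were higher at 3 h, and at 18 h 16 were higher and 3 lower; 15 were sustained. The interaction was called higher for 4 and lower for 9, or 1 and 12 with spike-in scaling. Ccl5, which attracts T cells, went on rising with LPS, from 6280, 6700, 6450 and 6660 CPM at 3 h to 13500, 13900, 12900 and 11400 CPM at 18 h, and the untreated level rose from 15.3 ± 2.52 to 37.7 ± 7.68 CPM. The responses of 8.73 and 8.43 differed by -0.30 ± 0.15 (adjusted p = 0.0951, edgeR), which was called under DESeq2 (-0.36) and spike-in scaling (-1.27). The difference was also called without library 1 of the untreated 3 h group (-0.40). The same held without library 3 (-0.37) or library 4 (-0.35) of the untreated 18 h group. Leaving out any other single library did not bring a call. Ccl3, an attractant of monocytes, waned: 6710 ± 372 against 210 ± 18.9 CPM at 3 h and 213 ± 10.9 against 99.2 ± 2.17 CPM at 18 h (interaction -3.89 ± 0.12). Its 18 h LPS level was thus about its untreated 3 h level, and its 18 h response of 1.10 was not called with spike-in scaling. Cxcl10 and Cxcl9 are both induced by interferon and bind the same receptor. Cxcl10 waned from 16300 ± 1980 to 1040 ± 64.2 CPM with LPS (interaction -1.82 ± 0.25), and Cxcl9 was at 1080 ± 266 and 418 ± 161 CPM with an interaction of -0.14 ± 1.17. Cx3cl1, fractalkine, was reversed: 21.3 ± 3.33 against 3.49 ± 1.93 CPM at 3 h and, at 18 h, 0 reads with LPS against 18 without.

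**Figure D4:**
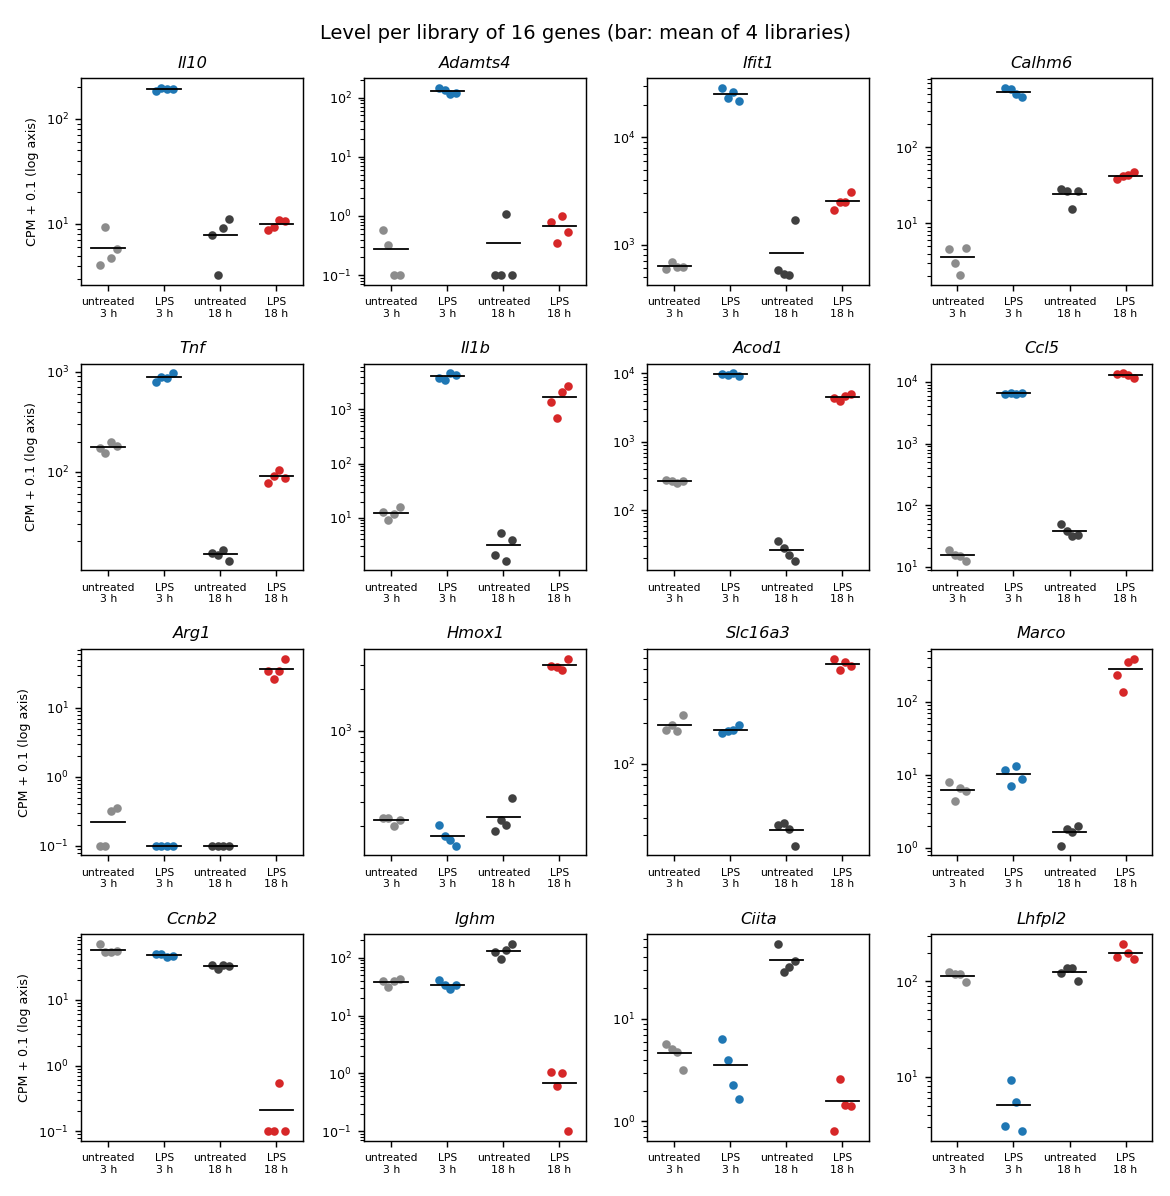
Points are single libraries of 16 genes in the 4 groups and bars are group means, in CPM + 0.1 on a log axis that differs between panels. Tnf falls in untreated and treated cells alike, and in Il10 and Adamts4 the groups overlap at 18 h. Arg1, Hmox1, Slc16a3 and Marco are highest at 18 h with LPS. In the Ifit1 panel, library 4 is the high point within the untreated 18 h group.

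The NF-kB subunits and their feedback inhibitors were induced at 3 h and their treated levels fell afterwards. Of 22 tested, 22 were higher at 3 h (20 with spike-in scaling), and 18 were higher and 1 lower at 18 h (6 and 2 with spike-in scaling; 14 and 0 without library 4 of the untreated 18 h group). The treated level fell for 21 between the times, and the interaction was lower for 15 and higher for 2 (16 and 0 with spike-in scaling); 12 were sustained, 6 transient and 0 late. Nfkbiz, a nuclear co-activator, was at 733 ± 17.6 CPM with LPS at 3 h and 62.9 ± 12.5 at 18 h, against 52.2 ± 3.63 and 44.8 ± 16.4 CPM without. Rel, a DNA-binding subunit, fell from 291 ± 19.4 to 25 ± 2.47 CPM with LPS, below the untreated mean of 31.9 ± 6.78 CPM at 18 h. Otud1, a deubiquitinase, was at 143 ± 16.2 and 9.25 ± 1.22 CPM. The untreated level fell for 15 members and rose for 0; with spike-in scaling it fell for 3 and rose for 5, or for 7 and 0 without library 4.

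Other feedback genes waned or held. Zfp36, which destabilises cytokine mRNA, was 1550 ± 113 CPM with LPS at 3 h and 410 ± 96.8 at 18 h (interaction -1.66 ± 0.18). Socs1 and Socs3, inhibitors of cytokine receptors, had separate courses: Socs1 waned, from 530 ± 32.4 to 36.7 ± 3.51 CPM with LPS (interaction -2.52 ± 0.31), while the responses of Socs3, 6.78 and 7.16, gave an interaction of 0.38 ± 0.35 (adjusted p = 0.381). The difference between these genes was not tested. Among the STAT factors and SOCS inhibitors the interaction was lower for 12 and higher for 3 of 19 (12 and 0 with spike-in scaling). Stat5a was transient, at 142 ± 7.52 CPM with LPS at 3 h and 8.91 ± 1.67 at 18 h, where it lay below all untreated libraries (13.9 ± 2.14 CPM). Cebpd and Irf8, transcription factors of macrophages, were transient as well: Cebpd fell from 816 ± 38.8 to 50 ± 22.7 CPM and Irf8 from 1230 ± 215 to 338 ± 39.6 CPM with LPS.

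The type I interferon-stimulated genes responded at both times, and less at 18 h. Of 48 tested, 47 were higher at 3 h and 46 at 18 h (21 with spike-in scaling, 36 without library 4), and the interaction was lower for 40 and higher for 1 (44 and 1 with spike-in scaling), with a median of -1.76. The list split into 30 sustained, 17 transient and 1 late gene. The untreated level rose for 31 members and fell for 1, which was 30 and 1 without library 4 of that group and 42 and 0 with spike-in scaling. Ifit1, an RNA-binding effector, was at 28900, 23200, 26300 and 21900 CPM with LPS at 3 h and 2110, 2490, 2480 and 3110 CPM at 18 h. Its untreated libraries read 590, 692, 616 and 617 CPM at 3 h and 581, 533, 518 and 1680 CPM at 18 h, with library 4 alone above 1000 CPM. Treated and untreated libraries did not overlap at either time (interaction -3.69 ± 0.40). Cmpk2, a mitochondrial nucleotide kinase, waned from 6350 ± 350 to 679 ± 88.8 CPM with LPS, and Aim2, the cytosolic DNA sensor, was transient, at 532 ± 39.5 and 64.8 ± 8.42 CPM with LPS; its untreated rise to 86.3 ± 29.3 CPM was not called without library 4.

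Guanylate-binding proteins and immunity-related GTPases, effectors against intracellular microbes, were also higher at both times and less so at 18 h: 15 of 15 were higher at 3 h and 14 at 18 h (10 with spike-in scaling), the interaction was lower for 13 and higher for 0 under TMM and spike-in scaling, and the median was -2.97. Gbp5 was at 3040 ± 442 CPM with LPS at 3 h and 153 ± 14.7 at 18 h, against 16.2 ± 2.30 and 22.7 ± 15.5 CPM without (interaction -4.78 ± 0.39). Iigp1 fell from 2060 ± 136 to 323 ± 33.1 CPM with LPS while its untreated level rose from 15.0 ± 1.52 to 38.4 ± 12.1 CPM. Apol9b, another interferon-induced gene, moved through its untreated level like P2ry14, at 20.3 ± 2.43 and 21.4 ± 3.12 CPM with LPS and 0.231 ± 0.185 and 1.43 ± 1.11 CPM without.

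Among induced genes that held their response, Nos2, the inducible nitric oxide synthase, was at 757, 683, 625 and 630 CPM with LPS at 3 h and 438, 442, 362 and 376 CPM at 18 h, against means of 0.748 and 0.368 CPM without LPS. Every 18 h value was below every 3 h value, and the responses of 9.75 and 10.00 did not differ by the test (interaction 0.25 ± 0.68, adjusted p = 0.787). Ptgs2, the inducible cyclooxygenase, fell from 1320 ± 135 to 87.3 ± 8.42 CPM with LPS and from 6.31 ± 1.36 to 0.715 ± 0.202 CPM without; its interaction of -0.79 ± 0.52 (adjusted p = 0.205) was called with spike-in scaling (-1.59, adjusted p = 0.0344). Ptges, the prostaglandin E synthase that acts after it, rose instead, from 29.8 ± 6.37 to 91.5 ± 22.0 CPM with LPS, and its response grew by 4.61 ± 0.64. Cd40, a costimulatory receptor, and Mt2, a metallothionein, waned from 1600 ± 81.6 to 101 ± 13.5 CPM and from 3760 ± 395 to 107 ± 4.35 CPM.

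Responses that grew were fewer, 79 of the 608 sustained higher genes, against 260 that waned and 269 without a called interaction. Hp, the acute-phase haemoglobin scavenger haptoglobin, rose from 13.6 ± 1.83 CPM at 3 h to 176 ± 34.2 at 18 h with LPS and stayed near 1 CPM without it (interaction 3.43 ± 0.62). Fpr1, the receptor for bacterial formyl peptides, rose from 29.1 ± 4.84 to 228 ± 90.3 CPM, and Timp1, an inhibitor of metalloproteinases, from 86.4 ± 14.8 to 225 ± 28.3 CPM. The untreated fall of Timp1 rests on 18 and 2 reads and was not called without library 4. Of the 20 acute-phase and antimicrobial genes 13 were higher at 3 h and 17 at 18 h (15 with spike-in scaling), and the interaction was higher for 10 and lower for 6 (6 and 6 with spike-in scaling). Ak4, a mitochondrial adenylate kinase, and Tarm1, an activating receptor of myeloid cells, grew through the untreated level alone: with LPS Ak4 was at 9.36 ± 2.20 and 12.6 ± 5.56 CPM and Tarm1 at 117 ± 9.47 and 101 ± 11.6 CPM, while untreated Ak4 fell from 4.55 ± 1.06 to 0.158 ± 0.316 CPM and Tarm1 from 2.36 ± 0.800 to 0.145 ± 0.290 CPM. Cdc42ep2 was of the same kind, at 43.8 ± 10.9 and 42.7 ± 3.15 CPM with LPS and 18.0 ± 0.749 and 2.76 ± 1.06 CPM without.

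Arg1, arginase, which competes with nitric oxide synthase for arginine, had the highest interaction of the late genes at 10 CPM or more. It had 0 reads in all 4 LPS libraries at 3 h and in all 4 untreated libraries at 18 h, values of 0, 0, 0.220 and 0.255 CPM in untreated cells at 3 h, and 34.0, 26.4, 34.2 and 51.8 CPM in LPS-treated cells at 18 h. Only the 18 h LPS libraries held more than single reads, and they were at least 301-fold above the untreated ones and at least 188-fold above the 3 h LPS libraries. Marco, a scavenger receptor for bacteria, was at 232, 139, 354 and 394 CPM with LPS at 18 h, 10.1 ± 2.76 CPM with LPS at 3 h, and 6.19 ± 1.55 and 1.54 ± 0.415 CPM without. Its treated level rose by 4.78 and its untreated level fell by 1.97. Slamf6, Ly6i and Siglece, surface proteins of leukocytes, were near or under 2 CPM in the other 3 groups and at 41.0 ± 10.6, 34.7 ± 1.30 and 33.4 ± 8.48 CPM with LPS at 18 h. Dnmt3l, a cofactor of DNA methylation, reached 10.6 ± 3.00 CPM there, and its untreated level fell from 3.03 ± 1.29 CPM to 3 reads in all.

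Genes of heme and thiol defence were higher late. Hmox1, heme oxygenase, was at 230, 228, 201 and 222 CPM in untreated and 203, 170, 157 and 143 CPM in LPS-treated cells at 3 h, and at 183, 223, 202 and 323 against 2970, 2900, 2760 and 3370 CPM at 18 h. The groups overlapped at 3 h, where a fall of 0.39 was called under TMM and not with spike-in scaling, and were far apart at 18 h (interaction 4.08 ± 0.20, adjusted p = 6.56e-15). Of the 25 genes of the NRF2 antioxidant programme and metallothioneins 19 were higher at 18 h (11 with spike-in scaling), 10 of them late, and the interaction was higher for 15 and lower for 6 (8 and 7 with spike-in scaling). Slc3a2, the heavy chain of cystine and amino acid exchangers, was at 211 ± 17.0 and 197 ± 28.5 CPM at 3 h without and with LPS, and at 101 ± 21.4 and 376 ± 49.7 CPM at 18 h; its untreated fall was not called with spike-in scaling.

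Among the lists, glycolysis and the hypoxia response held the largest share of late higher genes. Of 27 tested, 16 were late higher, and 25 were higher at 18 h (21 with spike-in scaling) against 12 higher and 8 lower at 3 h (10 and 1). The interaction was higher for 21 and lower for 3, or 11 and 3 with spike-in scaling (18 and 3 without library 4 of the untreated 18 h group), and its median was 1.81. The untreated level fell for 20 members and rose for 1; with spike-in scaling it fell for 7 and rose for 1. Slc16a3, the lactate exporter, was at 179, 193, 175 and 228 CPM without and 168, 175, 177 and 195 CPM with LPS at 3 h, and at 35.2, 36.4, 33.1 and 24.7 against 599, 489, 568 and 531 CPM at 18 h. The groups overlapped at 3 h and were far apart at 18 h, and its interaction of 4.19 ± 0.14 came from a treated rise of 1.61 and an untreated fall of 2.58. Bnip3, a mitophagy receptor induced by low oxygen, was at 37.4 ± 3.90 and 31.3 ± 7.67 CPM at 3 h and at 14.8 ± 3.10 and 125 ± 11.9 CPM at 18 h. Egln3, an oxygen-sensing prolyl hydroxylase, was reversed, from 2.26 ± 1.23 CPM with LPS against 5.01 ± 1.73 without at 3 h to 10.4 ± 1.46 against 0.846 ± 0.327 CPM at 18 h.

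**Figure D5:**
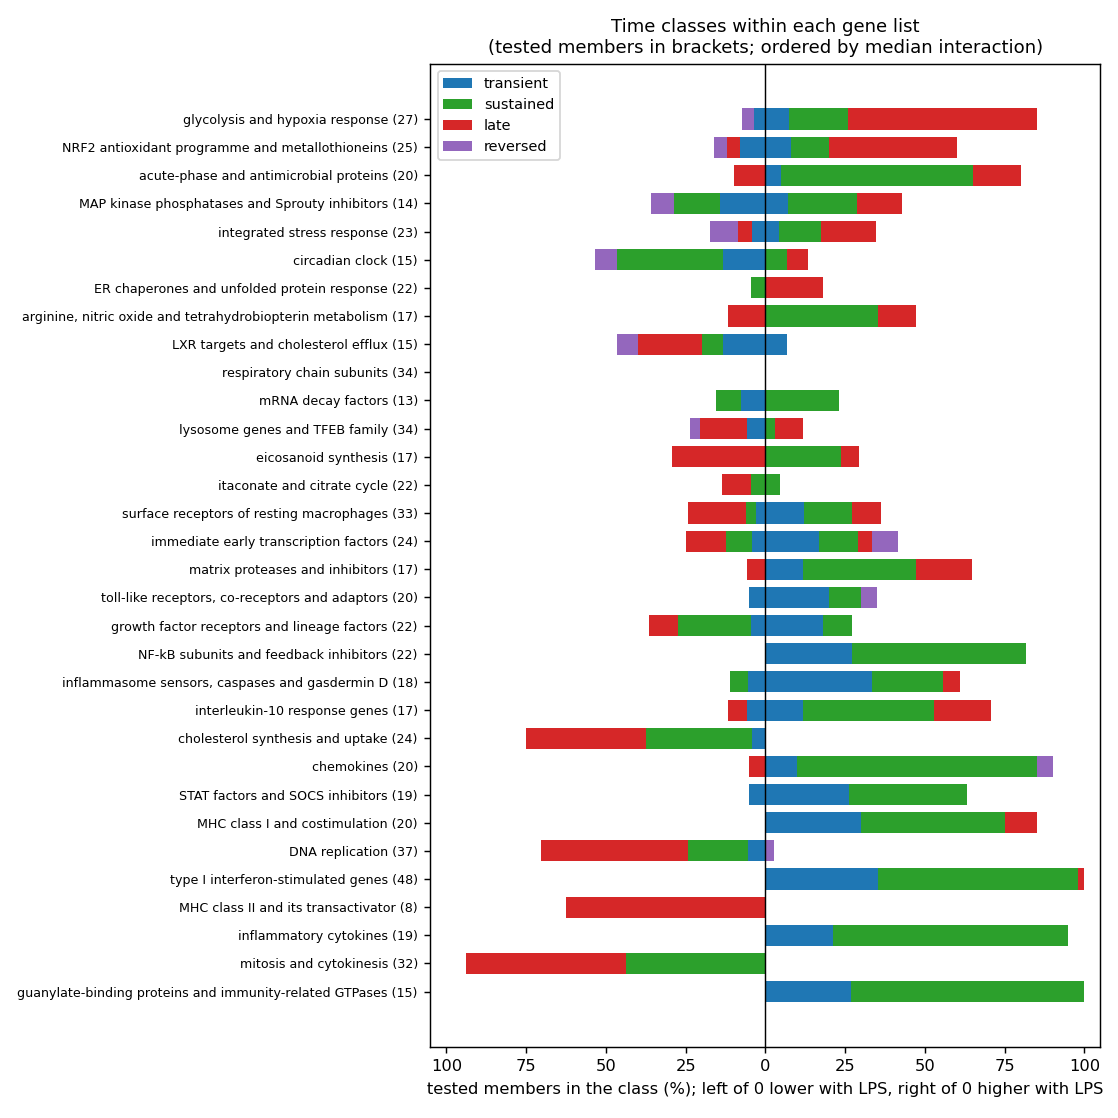
For each of 32 gene lists, bars give the share of tested members in each time class (%), to the right of 0 for genes higher and to the left for genes lower with LPS; lists are ordered by their median interaction. Glycolysis has the longest late bar to the right, mitosis the longest late and sustained bars together to the left, and the interferon lists consist of transient and sustained genes almost alone.

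Cell cycle genes were lower with LPS at 3 h and more of them at 18 h. Of the 32 genes of mitosis and cytokinesis 24 were lower and 1 higher at 3 h (8 and 1 with spike-in scaling). All 32 had a treated level that fell between the times, 31 were lower with LPS at 18 h, 16 were late lower and 14 sustained lower, and the interaction was lower for 29 and higher for 0 (31 and 0 with spike-in scaling), with a median of -2.83. Ccnb2, a cyclin of mitotic entry, was at 70.9, 53.4, 52.6 and 54.9 CPM without and 49.8, 49.0, 44.2 and 46.2 CPM with LPS at 3 h. At 18 h it was at 34.3, 29.2, 33.7 and 32.9 CPM without LPS, and 3 of the 4 LPS libraries had 0 reads, the other 0.448 CPM; the ratio was 281 (95% counting interval 77.5 to 2320). The groups did not overlap at either time; they lay close at 3 h, where the response of -0.29 was not called (adjusted p = 0.0871), and far apart at 18 h. Kif14, a kinesin of cytokinesis, was at least 57.3-fold lower with LPS at 18 h. Mki67, the proliferation marker, and Ube2c, a ubiquitin-conjugating enzyme of mitotic exit, fell to 12.3 ± 3.69 and 1.94 ± 0.689 CPM with LPS at 18 h, from 141 ± 6.52 and 140 ± 20.1 CPM at 3 h. The untreated level of the list fell for 26 members and rose for 0, for 0 and 0 with spike-in scaling, and for 7 and 0 with spike-in scaling without library 4.

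Of 37 DNA replication genes 18 were lower and 5 higher at 3 h (5 and 1 with spike-in scaling), 32 were lower and 3 higher at 18 h (33 and 0 with spike-in scaling), and the interaction was lower for 23 and higher for 4 (28 and 1 with spike-in scaling). Ccna2, the cyclin of S phase and mitosis, and Rrm2, a subunit of ribonucleotide reductase, were lower at both times and more so at 18 h, with interactions of -6.19 ± 0.44 and -4.18 ± 0.37. Mcm10, a replication initiation factor, was reversed: 83.4 ± 4.93 with LPS against 26.1 ± 6.04 CPM at 3 h and 2.27 ± 0.549 against 18.8 ± 3.48 CPM at 18 h. It shared that course with Egr1, an immediate early factor (interaction -3.02 ± 0.37), and with Tlr2, the receptor for bacterial lipoproteins, which was at 563 ± 44.3 against 264 ± 36.9 CPM at 3 h and 35.7 ± 14.7 against 77.1 ± 6.33 CPM at 18 h. Tlr4, the receptor for LPS itself, was at 71.8 ± 9.59 against 80.9 ± 5.89 CPM at 3 h (adjusted p = 0.163) and lower at 18 h, 60.8 ± 4.70 against 92.3 ± 3.10 CPM; its interaction of -0.43 ± 0.15 lost its call without library 3 of the LPS 3 h group (-0.34, adjusted p = 0.0553).

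Cholesterol synthesis and uptake was lower at 18 h. Of 24 genes 22 were lower at 18 h and 15 at 3 h (24 and 4 with spike-in scaling), and the interaction was lower for 14 and higher for 1 (17 and 0 with spike-in scaling). Fdps and Cyp51, enzymes of the pathway, were at 6.27 ± 2.43 and 8.37 ± 1.16 CPM with LPS at 18 h, against 55.0 ± 18.1 and 88.1 ± 9.76 CPM without. Their interactions were -2.98 and -2.92.

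Of the 8 tested genes of MHC class II and its transactivator 5 were late lower and 3 in no class. All 8 rose in untreated cells between the times, also without library 4 and with spike-in scaling. The treated level fell for the 5 late lower genes and rose for the other 3, H2-DMa, H2-DMb1 and Ctss, named after their values were seen (4 and 2 with spike-in scaling). With LPS 7 were lower at 18 h (8 with spike-in scaling), and the interaction was lower for 7 and higher for 0 (8 and 0 with spike-in scaling). Ciita, the transactivator of these genes, was at 5.65, 4.95, 4.62 and 3.06 CPM without and 6.22, 3.90, 2.18 and 1.56 CPM with LPS at 3 h, and at 54.0, 28.5, 32.3 and 36.6 against 0.703, 2.52, 1.34 and 1.31 CPM at 18 h. The groups overlapped at 3 h and were apart at 18 h, and the untreated rise of 3.03 was larger than the treated fall of 1.23. Cd74, the invariant chain, rose in untreated cells from 159 ± 15.0 to 893 ± 353 CPM, with 1420 CPM in library 4 and 699 to 727 CPM in the others, and fell with LPS from 297 ± 27.1 to 148 ± 9.34 CPM. H2-Aa, a chain of the presenting molecule, rose from 71.6 ± 5.56 to 219 ± 47.0 CPM without LPS and fell from 81.3 ± 5.09 to 45.7 ± 11.3 CPM with it.

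Other late lower genes included surface lectins and lipid enzymes. Mrc1, the mannose receptor, was at 351 ± 29.7 CPM with LPS at 3 h, above the 231 ± 13.3 CPM without, and at 43.9 ± 6.43 against 273 ± 52.8 CPM at 18 h. Clec10a, a lectin for galactose, was at 28.2 ± 4.84 CPM with LPS at 3 h and 1.6 ± 0.882 at 18 h, while it rose from 24.2 ± 4.03 to 93.0 ± 14.9 CPM without. Hpgd, which degrades prostaglandins, was at 17.3, 14.5, 12.4 and 6.23 CPM with LPS at 3 h and had 2 reads in all at 18 h, against 63.7, 52.6, 65.0 and 88.6 CPM without, a ratio of 580 (95% counting interval 160 to 4790). Acot1, an acyl-CoA thioesterase, was at least 58.2-fold lower with LPS at 18 h, and Ptgs1, the constitutive cyclooxygenase, was at 0.832 ± 0.807 against 19.2 ± 5.29 CPM. Cilp2, a matrix protein, was late lower through the untreated level alone: it had 1 read in untreated cells at 3 h and 26.9 ± 6.63 CPM at 18 h, and 0.186 ± 0.234 and 0.583 ± 0.421 CPM with LPS. Its interaction of -6.86 was not called without library 3 of the LPS 3 h group (-5.93, adjusted p = 0.0664). Of the 33 surface receptors in the list the interaction was lower for 16 and higher for 8 (19 and 4 with spike-in scaling).

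Ighm, the immunoglobulin heavy chain of B cells, was at 39.3, 30.6, 40.1 and 42.1 CPM without and 40.3, 33.7, 28.4 and 33.8 CPM with LPS at 3 h, and at 123, 95.6, 136 and 173 against 0.937, 0.503, 0.895 and 0 CPM at 18 h. The groups overlapped at 3 h and were far apart at 18 h (interaction -7.61 ± 0.36). The 8 B cell markers, 7 of them detected, include Ighm. They summed to 34.0 to 45.5 CPM in untreated and 32.3 to 44.6 CPM in LPS-treated libraries at 3 h. At 18 h they summed to 103 to 184 and 5.59 to 8.67 CPM. Except with LPS at 18 h, Ighm made up most of these sums. The other marker that was tested was in no class, and its treated level rose between the times. Of 8 markers of mast cells and basophils 6 were detected, with Mcpt4 and Ms4a2 at 0. They summed to 218 to 226 CPM with LPS at 3 h and to 15.5 CPM or less in the other groups. Only 2 of them passed the filter on low counts, and 1 of these was called higher at 3 h. The rise is thus not that of the whole list. The 13 mitochondrial transcripts, 10 of them detected, summed to 6110 to 9210 CPM with LPS at 18 h and to 13300 to 19100 CPM in the other groups. Of the 8 mitochondrial transcripts that were tested, the interaction was lower for 5 and higher for 0 (7 and 0 with spike-in scaling). With LPS at 18 h 6 were lower and 1 higher (6 and 0 with spike-in scaling), and 2 were late lower. Whether their lower sum shaped the late classes of other genes was not tested.

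Transient lower genes had untreated levels with a small median drift of 0.11 against a median treated change of 1.68. Lhfpl2, a membrane protein, was at 125, 118, 118 and 98.6 CPM without and 2.98, 9.19, 5.34 and 2.6 CPM with LPS at 3 h, and at 123, 137, 138 and 101 against 182, 247, 199 and 173 CPM at 18 h. LPS libraries were below all untreated ones at 3 h and above all of them at 18 h, where the response of 0.68 was called under TMM and not with spike-in scaling (interaction 5.20 ± 0.27). Plekhg3, Slco4a1, an organic anion transporter, and Cd300lb, an activating receptor, were at 1.09 ± 1.10, 8.37 ± 2.39 and 10.5 ± 3.69 CPM with LPS at 3 h, against 37.2 ± 3.85, 205 ± 6.38 and 211 ± 24.1 CPM without. At 18 h they were at 25.3 ± 1.68, 50.3 ± 5.43 and 112 ± 12.1 CPM with LPS. Their untreated levels at 18 h are not given, so these values alone do not show which level closed the distance. Osgin1, an oxidative stress gene, fell to 0.308 ± 0.459 CPM at 3 h and was at 16.3 ± 2.88 CPM with LPS at 18 h.

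Per1, a clock repressor, was at 9.65, 11.3, 18.5 and 16.3 CPM without and 0.270, 1.67, 2.67 and 1.82 CPM with LPS at 3 h, and at 13.0 ± 4.33 and 22.6 ± 4.97 CPM at 18 h. Of the 15 clock genes 11 were lower at 3 h and 8 at 18 h (8 and 11 with spike-in scaling), and the interaction was higher for 5 and lower for 2 (3 and 2). Tfeb, a master factor of lysosome genes, was at 1.55 ± 1.34 against 24.6 ± 3.06 CPM at 3 h and 24.3 ± 7.08 against 46.7 ± 10.7 CPM at 18 h (interaction 3.05 ± 0.42). The 34 lysosome genes had no common course: the interaction was higher for 12 and lower for 12, and 2 and 17 with spike-in scaling. Psap, the precursor of lysosomal saposins, was reversed, with a wide spread: 201, 461, 287 and 476 CPM with LPS at 3 h against 954 ± 72.9 without, and 2450, 2930, 2000 and 788 CPM at 18 h against 841, 586, 504 and 236 CPM. The groups overlapped at 18 h through library 4 of the LPS group.

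Among genes lower at both times, Cebpa, a myeloid lineage factor, was at 1.91 ± 0.817 against 27.9 ± 4.21 CPM at 3 h and 28.7 ± 3.60 against 82.9 ± 14.9 CPM at 18 h; its interaction of 2.33 ± 0.29 was 1.17 with spike-in scaling (adjusted p = 0.0811). Cnr2, a cannabinoid receptor found on leukocytes, had 0 reads with LPS at 3 h, at least 59.0-fold below the untreated cells, and returned to 9.54 ± 2.35 against 21.8 ± 4.18 CPM at 18 h. Rasgrp3, an activator of Ras GTPases, fell further, from 5.12 ± 2.84 to 0.736 ± 1.00 CPM with LPS, with 2.24 CPM in library 3 and at most 0.252 in the others. Neurl1b, Arhgef39 and Fam214a had responses between -3.60 and -4.25 at both times and interactions of -0.03 ± 0.50, 0.29 ± 0.84 and 0.22 ± 0.51 that were not called. The untreated fall of Arhgef39 was not called without library 4.

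Reversal in the other direction, lower at 3 h and higher at 18 h, included stress and lipid factors. Nr1h3, the sterol sensor LXR alpha, was at 27.3, 31.1, 24.9 and 25.3 CPM without and 15.1, 11.4, 8.01 and 11.2 CPM with LPS at 3 h, and at 22.6, 27, 18.7 and 23.8 against 110, 116, 134 and 112 CPM at 18 h. The groups did not overlap at either time, the untreated level did not pass the test (-0.24, adjusted p = 0.174), and the interaction was 3.61 ± 0.20. Ddit3 and Trib3, factors of the integrated stress response, went from 18.9 ± 2.41 and 1.77 ± 0.104 CPM with LPS at 3 h to 297 ± 61.2 and 11.6 ± 4.43 CPM at 18 h, against 55.0 ± 4.40 and 7.71 ± 1.56 CPM, then 114 ± 12.2 and 4.10 ± 1.01 CPM without. Their 18 h responses of 1.38 and 1.5 were not called with spike-in scaling. Spred2, an inhibitor of Ras signalling, was of the same course (interaction 4.44 ± 0.64).

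Of the genes higher first and lower later, Gprc5c, an orphan receptor, had the lowest fitted interaction: 25.7, 17.0, 17.5 and 15.1 CPM with LPS at 3 h against 1.41, 4.28, 0.660 and 3.83 CPM without, and 0 reads with LPS at 18 h against 23.8, 18.3, 18.9 and 28.5 CPM, at least 127-fold lower. Its untreated 18 h libraries thus stood at the level of the LPS 3 h libraries. Cd247, a signalling chain of T and NK cell receptors, had 0 reads without LPS at 3 h and 11.1 ± 4.21 CPM with it, at least 64.1-fold higher, and 0.337 ± 0.375 against 1.59 ± 0.726 CPM at 18 h. Of 10 T and NK cell markers 6 were detected, with Cd3e, Cd3g, Gzma and Ncr1 at 0. They summed to 21.4 to 39.8 CPM with LPS at 3 h and 4.94 to 6.82 CPM without. At 18 h the sums were 2.46 to 5.02 and 11.0 to 17.9 CPM. Only 2 of these markers were tested, of which 1 was transient higher and 1 late lower. Tnfsf8, CD30 ligand, was at 16.1 ± 1.26 CPM with LPS at 3 h and 0.303 ± 0.320 at 18 h (interaction -6.68 ± 0.93).

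The change of the LPS level between 3 h and 18 h was also tested against that of the S14 level, a difference whose value uses no untreated library, although these enter the estimate of the spread. Of 11717 genes 4773 differed (40.7%), 2255 higher and 2518 lower; the count was 1168 with spike-in scaling, or 2581 without library 4 of the untreated 18 h group, and 5266 under TMM without that library. The LPS change went beyond the S14 change in the direction of the class in 617 of 771 transient higher, 616 of 817 transient lower, 307 of 442 late higher and 533 of 757 late lower genes. These counts share the LPS libraries with the classes themselves. Arg1, Ak4, Cnr2 and Egln3 had the most positive differences and Gprc5c, Acot1, Hpgd and Kif14 the most negative ones among genes of at least 10 CPM in the highest group. A positive difference need not be a rise with LPS, since the change of the LPS level of Ak4 was not called. The S14 levels of these genes are not given here.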

How the data were processed

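Libraries of 3′-end sequencing (QuantSeq) from 24 samples of macrophages were analysed, 4 for each of 6 groups. The authors deposited whole-number read counts per gene, which were used as deposited; the submitters' processing notes name build GRCm38, featureCounts 1.6.4 (Subread), STAR 2.6.1a, cutadapt 1.18, DESeq2 and FastQC. A second deposited table holds a signal, counts divided by size factors, from its values; reads recovered from it were whole to within 8.6e-10 and gave the spike-in reads (ERCC and SIRV). Groups were taken from the labels, which call the controls untreated where the table's column names call them vehicle. Beside 55401 genes the counts held 7 ribosomal RNA entries (0.132% to 0.469% of reads), which stayed out of the library sizes and tests. Of the 55401 genes 11717 passed the filter on low counts (filterByExpr, minimum count 10, total 15).

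Contrasts were tested with edgeR 4.0.16 (R 4.3.3, quasi-likelihood F-test, TMM scaling, 6 group means over 24 libraries), with Benjamini-Hochberg adjustment over all tested genes and calls at 0.05. Standard errors were derived from each fold change and its F statistic. A response counted for a time class when called and at least 2-fold. Lower bounds against groups at 0 use 3 reads over the group, and counting intervals (exact, 95%) cover counting error only. The steps were tested on simulated data. Alternatives were DESeq2 1.42.0 and its size factors, spike-in scaling, other filters and folds, only 16 libraries, the replicate number as a block, recovered reads, and each library left out. Replicate numbers were not taken to pair the samples.

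Named genes are the 5 with the largest response in each transient, late and sustained class (at least 10 CPM in the highest group, no overlap at the defining time), the 4 reversed genes with the largest interactions, the 4 with the largest untreated drift in each direction without a called treated change, the 3 largest called interactions of each of 32 gene lists, 15 index genes, and the 4 highest and lowest differences between LPS and S14; not all are described, and a few genes are not reported here. The genes at the edge of the fold threshold were chosen after their values were seen. The members, lists and tests were chosen with earlier results of these data known.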

Additional observations from a re-analysis of the deposited data

Results flagged for a closer look

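The response to LPS differed between 3 h and 18 h in 6000 genes, by the test of that difference, and the change from 3 h to 18 h differed between LPS and S14 in 4773 genes. Both counts are described above.

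For the 104 named genes, single libraries that lay far from the other 3 of their group were sought: the gap to the nearest library divided by the range of the group had to exceed Dixon's 95% critical value. It did in 35 of 404 groups with a range above 0, or 8.66%. For normally distributed values chance gives about 1 in 20. In 15 of the 35 the other 3 libraries had 0 reads, so the value is that of a few reads. There the ratio is 1 by construction, so the share cannot be set against that chance rate. Library 4 of the untreated 18 h group held 7, more than any other library, and it stands apart from its group over all genes as well. Whether these values come from the cells or from the library was not tested. In library 1 of the untreated 3 h group the values were Ccnb2 at 70.9, Cxcl10 at 241, Dnmt3l at 4.94, Dusp5 at 3.06 and Edn1 at 0.235 CPM. In library 2 of the untreated 3 h group the values were Cilp2 at 0.225, Il12b at 0.45 and Il6 at 0.225 CPM. Library 3 of the untreated 3 h group had Jaml at 0.22 CPM. In library 4 of the untreated 3 h group the values were Gbp5 at 12.8 and Sectm1a at 0.255 CPM. In library 1 of the LPS 3 h group the values were Cdc42ep2 at 27.6 and Fam214a at 1.08 CPM. In library 4 of the LPS 3 h group the values were Ifih1 at 1440 and Iigp1 at 1860 CPM. In library 1 of the untreated 18 h group the values were Ifnb1 at 0.387, Tarm1 at 0.581 and Timp1 at 0.387 CPM. In library 2 of the untreated 18 h group the values were Ak4 at 0.632 and Cd40 at 18.5 CPM. In library 3 of the untreated 18 h group the values were Adamts4 at 0.979, Dusp5 at 1.82, Egr1 at 6.15 and Il12b at 0.28 CPM. In library 4 of the untreated 18 h group the values were Aim2 at 130, Arhgef39 at 6.65, Cd74 at 1420, Dnmt3l at 0.525, Gbp5 at 45.9, Ifit1 at 1680 and Slc3a2 at 69.7 CPM. Library 1 of the LPS 18 h group had Nr4a3 at 0.468 CPM. In library 3 of the LPS 18 h group the values were Ccnb2 at 0.448, Clec10a at 2.91 and Rasgrp3 at 2.24 CPM.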

How the results depend on the processing

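The count of called interactions was 6000 and lay between 5779 and 6143 with each library left out; it was 6140 by DESeq2, 5986 with its size factors, 6055 without a filter, 5655 with only the 16 libraries and 5891 on the recovered reads. Of 104 named genes 94 kept the direction and call of their interaction under every setting, and the others are given beside their values. Spike-in scaling gave 381 interactions called higher, 4386 treated changes, 1168 differences between LPS and S14, 1601 called interactions in the treated level only and 1724 in the untreated level only. Transient lower genes were then 160, sustained higher 383, late higher 111, late lower 1976, reversed higher 333 and reversed lower 19. Without library 4 of the untreated 18 h group it gave 858 interactions called higher, 2422 untreated drifts and 2581 differences between LPS and S14; transient genes were 1176 higher and 329 lower, late higher 226, and reversed 132 higher and 37 lower. Of the 442 late higher genes 93 kept that class with spike-in scaling and 194 with that scaling without library 4. For the 817 transient lower genes the numbers were 134 and 309, and for the 87 reversed lower genes 19 and 37. Of the 608 sustained higher genes 362 and 505 kept their class, and of the 446 sustained lower genes 282 and 304. More was kept by the 771 transient higher (628 and 743), 757 late lower (731 and 687) and 83 reversed higher genes (83 and 73). The cause was not tested.

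With a 1.5-fold threshold sustained genes were 964 higher and 906 lower, late higher 724, and reversed 203 higher and 272 lower. With a 4-fold threshold transient genes were 441 higher and 308 lower, sustained 263 and 95, late 162 and 415, and reversed 15 and 9. With at least 10 CPM, reversed lower genes were 55, since fewer genes were tested. With the replicate number as a block, 6035 interactions were called, 5948 of them shared, and the block changed no named gene's call. Same-numbered libraries of different groups correlated in their deviations between -0.2 and 0.22, with 1 of 24 pairs above 0.1, and 11 of 16 libraries correlated best with their own number. The spike-ins hold 705 to 2444 reads in the 16 libraries, which limits that scaling.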

Other observations

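Genes of the endoplasmic reticulum chaperones and the unfolded protein response had a modest late response: of 22 tested, 6 were higher and 4 lower at 3 h and 15 higher and 2 lower at 18 h, and the interaction was higher for 13 and lower for 1. With spike-in scaling 0 interactions were higher and 3 lower, and 0 genes were higher and 2 lower at 18 h. Over all 11717 genes that scaling called 381 interactions higher and 4476 lower, and 695 and 4526 responses at 18 h. The medians of the list were then -0.45 for the interaction and -0.11 at 18 h, against -0.97 and -0.68 over all genes. Among MAP kinase phosphatases and Sprouty inhibitors, which limit growth factor and stress kinase signalling, the interaction was higher for 8 and lower for 3 of 14 (4 and 3 with spike-in scaling). Of 34 respiratory chain subunits 0 passed 2-fold at either time; the interaction was higher for 10 and lower for 7 under TMM, and 0 and 15 with spike-in scaling.

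Toll-like receptors, co-receptors and adaptors, the sensing apparatus itself, had interactions lower for 11 and higher for 4 of 20 (14 and 1 with spike-in scaling). At 3 h 11 were higher and 4 lower (10 and 1), and at 18 h 6 were higher and 4 lower (0 and 7). With spike-in scaling their median response at 18 h was -0.68, the same as over all genes. That scaling called 4526 of all 11717 genes lower at 18 h. MHC class I and costimulatory genes rose in untreated cells for 15 and fell for 2 of 20 (16 and 0 with spike-in scaling), and 19 were higher with LPS at 3 h and 18 at 18 h (6 with spike-in scaling). Inflammasome genes had interactions lower for 10 and higher for 4 of 18 (12 and 0 with spike-in scaling). Immediate early transcription factors, were 12 higher and 5 lower at 3 h and 9 higher and 10 lower at 18 h, of 24 tested; with spike-in scaling the counts were 12 and 2, then 2 and 10.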
